A study of Homo sapiens with 10 samples.

Results

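The mevalonate pathway was read in K562 cells, a human erythroleukemia line, through 9 of its enzyme genes. The genes were taken by name from the deposited lists of 20535 genes, as the enzymes that lead from acetyl-CoA to squalene and to geranylgeranyl diphosphate, and all 9 were listed and passed the filter on low values. The 9 genes do not cover every step of the pathway. The genes were picked after their levels in sgHS2 libraries had been seen against sgGal4 libraries, so those comparisons are a description. Counts of members past a threshold in them are given beside the share of all genes and test nothing about the members. The study targeted dCas9 fusions to HS2, an enhancer of the β-globin locus control region, and performed RNA-seq to follow the transcriptome. There were 10 libraries in 5 groups, 2 for each group. The sgGal4 libraries carried a nontargeting sgRNA, and their labels name no effector. The other groups carried sgHS2 with dCas9-KRAB (K), with dCas9-LSD1 (L), with enCRISPRi-LK (dCas9-LSD1 and MCP-KRAB) or with enCRISPRi-KL (dCas9-KRAB and MCP-LSD1). By the study's general methods, cells given sgHS2 or sgGal4 were lentivirally transduced, sorted for fluorescent markers and induced with doxycycline. Cells handled so are selected populations of one line. The legend of the study's RNA-seq figure instead names nontransduced cells as the reference. Whether the cells of the sgGal4 libraries were handled like the sgHS2 cells is therefore not settled by these sources. The study describes its RNA-seq values as means of 2 experiments, with several HS2 sgRNAs used together. Nothing in the labels says whether the replicates were separate cultures. The p-values therefore measure only the spread between these libraries, which may be technical.

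The mevalonate pathway makes the isoprenoid units from which cells build cholesterol, and it also feeds dolichol, the ubiquinone side chain and the lipid anchors of prenylated proteins. Its genes are classical targets of SREBP2, a transcription factor that is held in the endoplasmic reticulum by INSIG proteins when sterols are plentiful and released to the nucleus when sterols are scarce. Proliferating leukemia cells such as K562 need the pathway for membrane and for prenylated proteins.

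The 9 genes lie on 7 chromosomes (hg19 coordinates from GENCODE). ACAT2 is at chr6:160183077-160200144, HMGCS1 at chr5:43287572-43313614, MVK at chr12:110011060-110035930, MVD at chr16:88718343-88729569, IDI1 at chr10:1085092-1095059 and FDFT1 at chr8:11653082-11696904. PMVK (chr1:154897216-154909195), FDPS (chr1:155278539-155290457) and GGPS1 (chr1:235490665-235507847) share chromosome 1. Reads of some members can come from other genes, or be lost where copies are alike. TCP1, on the opposite strand, shares 454 of the 1520 exon bases of ACAT2, and it was at 195 to 320 TPM. RUSC1-AS1 shares 587 of the 1417 exon bases of FDPS on the opposite strand, and 8 pseudogenes are named after FDPS and 3 after IDI1. Whether reads were counted by strand is not given in the sources used here, so the levels of ACAT2 and FDPS are less certain. HMGCS1 shares 2497 of its 5350 exon bases with a long noncoding RNA on the opposite strand, IDI1 173 of 2739 with IDI2-AS1, and GGPS1 757 of 2895 with an annotated coding gene on its own strand, so their levels carry the same limit.

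The libraries were checked for their labels and their make-up. HBE1, the embryonic β-like globin gene downstream of HS2, was at 1376 and 1620 TPM (transcript abundance scaled to a fixed total per library) with sgGal4 and between 361 and 1019 TPM in the 8 sgHS2 libraries. KDM1A, the gene of LSD1, was raised only in the libraries labelled L (84.2 and 105 TPM, against 25.2 to 33.5 TPM in the other 8), and ZNF10, the source of a KRAB domain in common use, was at 0.97 and 1.89 TPM with sgGal4, 1.18 and 3.80 TPM in those labelled K and 31.5 to 365 TPM in the remaining 6. These levels do not follow the labels in every group, so K, L, LK and KL are used here as the names on the labels. Of 10 markers of K562 and erythroid cells only GATA1 was listed at 0 in all libraries, and the sum of the 10 was 3957 and 4009 TPM with sgGal4, 3381 to 4989 TPM with K and L and 2188 to 2800 TPM with LK and KL. Of 7 T cell, B cell and fibroblast markers, CD3E, MS4A1 and COL3A1 were listed at 0 throughout, and the sum of the 7 was 27.7 and 37.9 TPM with sgGal4 and 3.21 to 22.4 TPM with sgHS2, most of it from CD3D except in L replicate 2 (CD3D was 26.1 and 33.6 TPM with sgGal4, 1.65 to 21.3 TPM with sgHS2). The 13 mitochondrial genes held 53.6% and 43.7% of the listed TPM in the sgGal4 libraries and 39.9% to 46.6% in the others. The part of these marker sums in the differences given below was not tested. With the mitochondrial genes removed and the values rescaled, 5 (K), 4 (L), 4 (LK) and 5 (KL) members lay past the threshold of the fit on the lower side, and over all genes the lower calls went from 75 of 164 to 138 of 209 (K), 57 of 88 to 100 of 140 (L), 84 of 203 to 153 of 244 (LK) and 74 of 138 to 136 of 201 (KL). This scaling moved the median log2 difference of all genes from 0.06 to -0.06 (K) and from 0.03 to -0.09 (LK). TPM values keep no read totals, so the depth behind each value is unknown. In bulk RNA, fewer cells of a type and less RNA per cell cannot be told apart.

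Promoter windows were read for the members because most of them lay lower together in the sgHS2 libraries. RefSeq (GRCh38.p14) gave 12 windows for 7 members, each the 250 bases before a transcription start, and ACAT2 and FDFT1 had none in the table. The box CCAAT, or ATTGG on the other strand, was found in 7 of the 12 windows. Among all 35116 windows 32.0% held it. At least 2 matches were found in 6 of the 12 windows, against 9.53% of all windows. The box GGGCGG (or CCGCCC) was in 11 of the 12 windows, that of PMVK among them, against 42.6% of all. The letters G and C made up 58.4% to 74.0% of the 12 windows, and this share was not compared with all windows. Whether either box goes with the lower levels was not tested. The motif TCACNCCAC (or GTGGNGTGA), a form of the sterol regulatory element, was in 0 of the 12 windows and in 0.883% of all windows, which says only that these letters are not there. Some windows of one gene overlap, so they are not independent. One window each of the 5 members with 2 or more CCAAT matches is shown, with PMVK as the member without any. The CCAAT and ATTGG letters are in capitals, and in the IDI1 window the first pair overlaps.
HMGCS1, chr5:43313413-43313662, minus strand: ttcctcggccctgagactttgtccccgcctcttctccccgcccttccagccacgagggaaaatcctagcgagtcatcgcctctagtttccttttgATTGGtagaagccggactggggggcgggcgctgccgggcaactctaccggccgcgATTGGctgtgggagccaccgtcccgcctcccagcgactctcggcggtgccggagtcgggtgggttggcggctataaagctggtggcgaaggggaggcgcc
MVK, chr12:109573544-109573793, plus strand: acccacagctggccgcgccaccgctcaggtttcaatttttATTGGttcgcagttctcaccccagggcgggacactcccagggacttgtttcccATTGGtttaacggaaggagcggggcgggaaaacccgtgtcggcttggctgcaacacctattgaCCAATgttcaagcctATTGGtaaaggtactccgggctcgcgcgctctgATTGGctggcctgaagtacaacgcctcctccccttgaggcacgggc
MVD, chr16:88663092-88663341, minus strand: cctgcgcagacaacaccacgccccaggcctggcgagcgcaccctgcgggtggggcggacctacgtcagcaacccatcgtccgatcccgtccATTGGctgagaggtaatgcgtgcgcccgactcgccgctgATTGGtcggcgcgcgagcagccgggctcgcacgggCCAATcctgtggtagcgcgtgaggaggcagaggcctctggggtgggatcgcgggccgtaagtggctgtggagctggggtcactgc
IDI1, chr10:1048887-1049136, minus strand: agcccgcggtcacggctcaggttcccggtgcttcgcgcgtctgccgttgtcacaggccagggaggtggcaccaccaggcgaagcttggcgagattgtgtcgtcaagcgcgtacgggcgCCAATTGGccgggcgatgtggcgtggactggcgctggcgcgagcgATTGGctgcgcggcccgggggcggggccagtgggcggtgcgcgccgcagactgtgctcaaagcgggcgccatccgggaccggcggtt
FDPS, chr1:155308616-155308865, plus strand: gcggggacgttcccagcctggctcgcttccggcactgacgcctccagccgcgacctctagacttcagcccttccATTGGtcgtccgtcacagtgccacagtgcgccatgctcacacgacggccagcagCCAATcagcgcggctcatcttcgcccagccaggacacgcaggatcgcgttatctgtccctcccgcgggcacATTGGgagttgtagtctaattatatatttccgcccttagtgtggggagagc
PMVK, chr1:154936720-154936969, minus strand: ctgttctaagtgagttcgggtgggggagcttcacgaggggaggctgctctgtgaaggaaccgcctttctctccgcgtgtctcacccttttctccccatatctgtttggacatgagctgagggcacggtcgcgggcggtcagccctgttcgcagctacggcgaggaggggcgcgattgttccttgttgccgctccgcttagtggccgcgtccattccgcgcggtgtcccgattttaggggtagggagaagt
In HMGCS1 the matches began 155 and 100 bases before the start, in MVD 159, 120 and 85 bases before it, and in FDPS 176, 122 and 51 bases before it. MVK had 5 in its window, the most in any one window of the members. A match is a run of letters and no measure of binding.

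The levels were then taken step by step. ACAT2, the cytosolic thiolase that joins acetyl-CoA units, stood at 42.5 and 34.0 TPM with sgGal4. The values were 23.7 and 13.1 TPM for K, 20.03 and 17.8 TPM for L, 21.3 and 18.4 TPM for LK and 11.5 and 10.7 TPM for KL. All 8 sgHS2 libraries were below both sgGal4 libraries, and those labelled KL were lowest. The log2 difference from sgGal4 was between -0.91 (LK, standard error 0.294) and -1.69 (KL).

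HMGCS1 makes HMG-CoA in the cytosol, at the step after ACAT2. It was at 66.2 and 105 TPM with sgGal4, 20.1 and 21.9 TPM with K, 26.2 and 32.0 TPM with L, 14.6 and 24.3 TPM with LK and 21.9 and 16.9 TPM with KL. The highest sgHS2 library thus had less than the lowest sgGal4 library by a wide margin, although the sgGal4 libraries themselves lay far apart. Its mean over the 8 sgHS2 libraries was 26.0% of the sgGal4 mean, the lowest share among the 9 members. On the log2 scale the differences were -1.94 (K), -1.49 (L), -2.09 (LK) and -2.06 (KL), each with a standard error of 0.294.

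MVK and PMVK, which phosphorylate mevalonate in turn, were the least abundant members. MVK had 6.01 and 7.16 TPM with sgGal4, 2.30 and 1.52 TPM with K, 1.70 and 3.32 TPM with L, 2.39 and 2.79 TPM with LK and 4.80 and 4.48 TPM with KL. The groups did not overlap with sgGal4, and the libraries labelled KL kept the highest share, 70.5% of the sgGal4 mean against 29.0% to 39.3% in the other groups. PMVK had 4.14 and 3.76 TPM with sgGal4, 2.34 and 2.68 TPM with K, 6.01 and 3.36 TPM with L, 3.72 and 4.06 TPM with LK and 2.64 and 4.25 TPM with KL. It was the exception of the pathway, since 5 of the 8 sgHS2 libraries were below both sgGal4 libraries and its mean over the 8 was 92.0% of the sgGal4 mean. At such levels a difference of log2(TPM + 1) understates the change, and with a pseudocount of 0.1 the difference of MVK with K went from -1.39 to -1.76.

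MVD, which decarboxylates mevalonate diphosphate to the first isoprenoid unit, was at 47.8 and 64.2 TPM with sgGal4. The libraries labelled K had 34.3 and 44.1 TPM, those labelled L 38.2 and 24.9 TPM, those labelled LK 36.9 and 9.77 TPM and those labelled KL 33.8 and 29.1 TPM. All 8 were below sgGal4, but replicate 2 of LK stood apart from the rest. The difference of MVD with LK was -1.48 (standard error 0.429) with both libraries and -0.57 without that library.

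IDI1, the isomerase that turns isopentenyl into dimethylallyl diphosphate, was at 86.3 and 102 TPM with sgGal4. It was at 36.6 and 23.1 TPM with K, 27.7 and 33.2 TPM with L, 41.0 and 40.9 TPM with LK and 26.9 and 23.3 TPM with KL. The sgHS2 libraries were again all below sgGal4, with those labelled LK on top. The log2 differences ran from -1.17 (LK) to -1.86 (KL), with a standard error of 0.243.

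FDPS condenses these units to farnesyl diphosphate, the branch point of the pathway. It was at 99.8 and 123 TPM with sgGal4, 67.1 and 62.1 TPM with K, 67.5 and 47.7 TPM with L, 75.9 and 79.6 TPM with LK and 65.1 and 65.8 TPM with KL. FDPS kept 51.7% to 69.7% of the sgGal4 mean in the 4 groups, more than IDI1 just before it, which kept 26.7% to 43.6%. GGPS1 extends farnesyl diphosphate to geranylgeranyl diphosphate, on the branch that leads to protein prenylation. It had 64.0 and 77.7 TPM with sgGal4, 34.2 and 34.7 TPM with K, 45.8 and 55.0 TPM with L, 40.1 and 46.5 TPM with LK and 62.3 and 55.7 TPM with KL. With KL the upper library came close to the lower sgGal4 library, and the log2 difference was -0.26 (standard error 0.203), against -1.01 with K.

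FDFT1, squalene synthase, takes farnesyl diphosphate into the sterol branch. It was the most abundant member with sgGal4, at 194 and 233 TPM. It was at 84.4 and 61.9 TPM with K, 68.3 and 80.9 TPM with L, 70.4 and 83.8 TPM with LK and 66.5 and 73.0 TPM with KL. The 4 groups lay on top of each other, at 32.6% to 36.1% of the sgGal4 mean, and the log2 differences were between -1.46 and -1.60 (standard error 0.198).

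**Figure D1:**
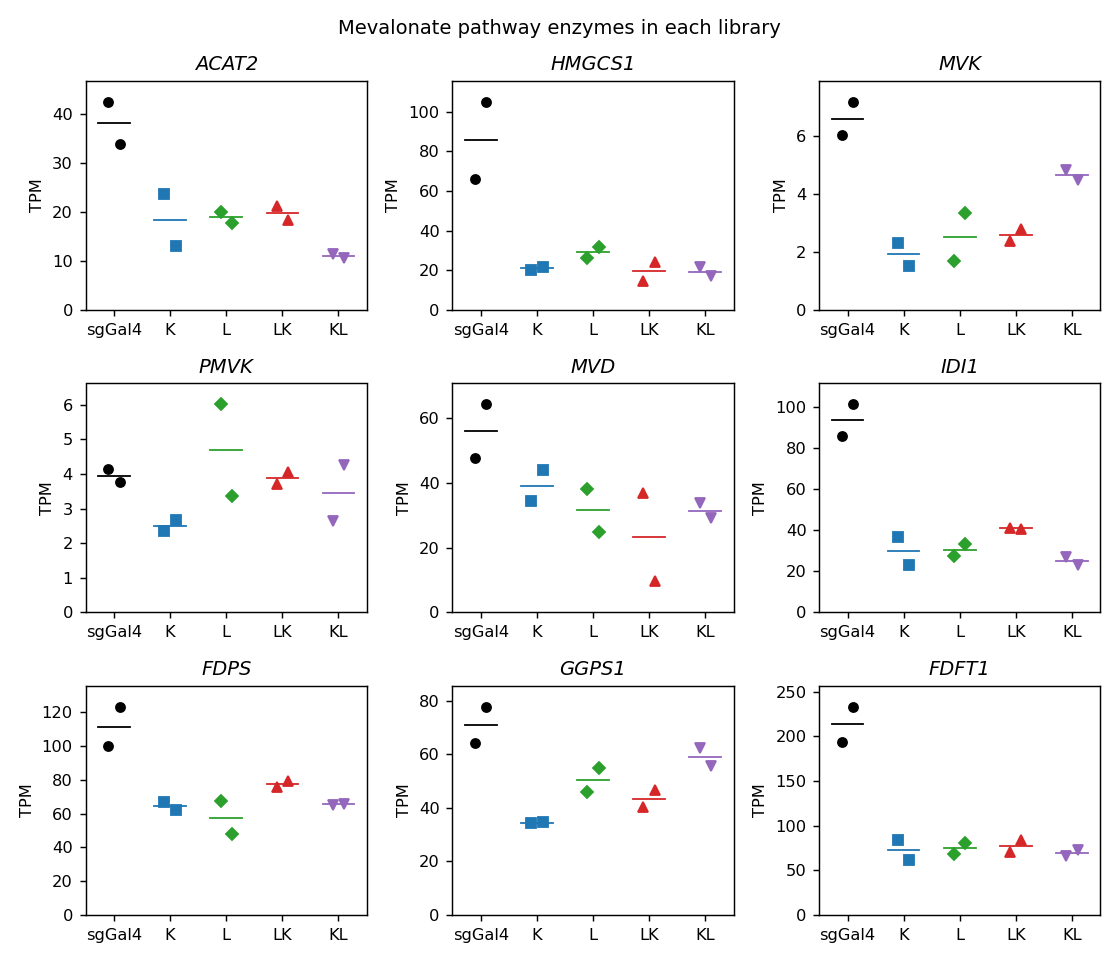
TPM (vertical axis, from 0) of the 9 enzymes in each of the 10 libraries, by group. Points are libraries and lines are means of 2 libraries. In every panel but that of PMVK the sgHS2 libraries lie below both sgGal4 libraries.

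The order of the levels differed between sgGal4 and sgHS2 libraries. With sgGal4 it was FDFT1, FDPS, IDI1, HMGCS1, GGPS1, MVD, ACAT2, MVK and PMVK, and the neighbours from FDPS to MVD overlapped in their 2 libraries, whereas FDFT1 stood above FDPS and ACAT2 below MVD without overlap. HMGCS1, in rank 4 with sgGal4, was in rank 6 with K, L and KL and in rank 7 with LK. FDFT1 and FDPS held the first 2 ranks in every group and overlapped with K and with LK. TPM is corrected for transcript length, so levels can be set side by side between genes, but the ranks of ACAT2, FDPS, HMGCS1, IDI1 and GGPS1 carry the limits given above for genes that share reads. The 9 levels summed to 680 ± 98.3 TPM (SD, n = 2) with sgGal4, 285 ± 28.3 TPM with K, 300 ± 2.26 TPM with L, 308 ± 2.79 TPM with LK and 289 ± 8.56 TPM with KL, so the 4 sgHS2 groups kept 41.9% to 45.3% of the sum in sgGal4.

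Against sgGal4, the median log2 difference of the 9 members was lowest for LK at -1.08, followed by K at -1.06, L at -0.97 and KL at -0.80. The medians over all 10127 genes tested were 0.03, 0.06, 0.01 and 0.05 in the same order. In the limma fit across all genes, with Benjamini-Hochberg adjustment, HMGCS1, IDI1 and FDFT1 lay past an adjusted p of 0.05 on the lower side in all 4 comparisons, which the choice of members used. GGPS1 also lay past it with K, FDPS with L and ACAT2 with KL. This gave 4 of 9 members for K (of all genes 0.741% were called lower and 0.879% higher), 4 for L (0.563% and 0.306%), 3 for LK (0.829% and 1.18%) and 4 for KL (0.731% and 0.632%), and 0 members were called higher. Without K replicate 2 the count with K was 0, without K replicate 1 it was 2, and without LK replicate 1 the count with LK was 1. With L it was 1 without L replicate 1, and 2 without L replicate 2 or without sgGal4 replicate 2. Except for PMVK, all members were below both sgGal4 libraries in every sgHS2 library, as were 5.29% of all genes tested. Since the members were chosen on these comparisons, and the 4 comparisons share the sgGal4 libraries, nothing further was drawn from the counts.

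**Figure D2:**
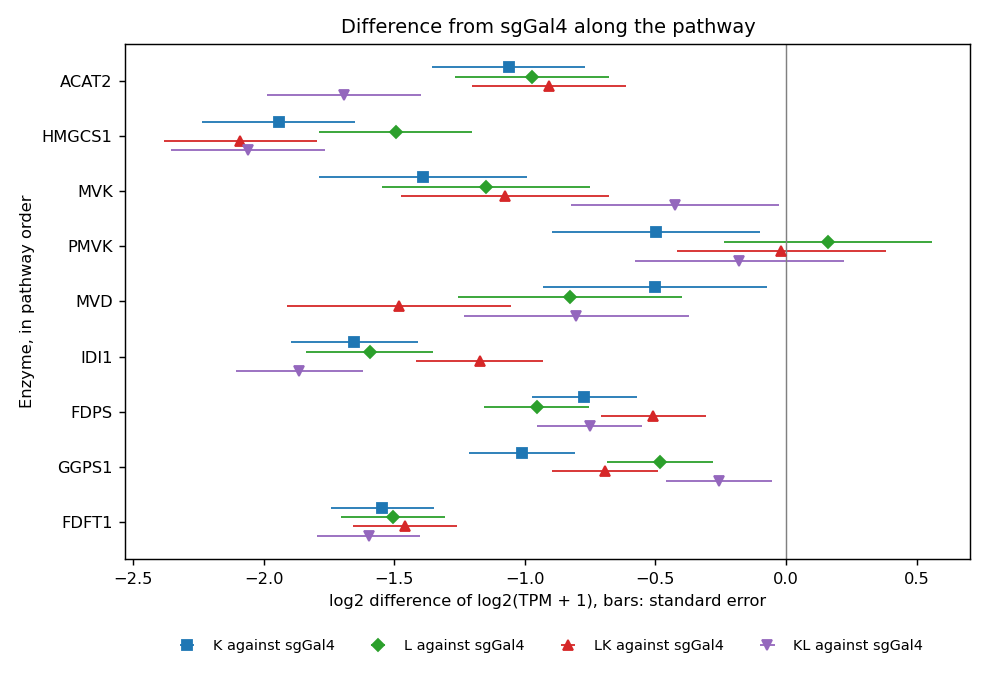
Difference of log2(TPM + 1) from sgGal4 (horizontal axis) for the 9 enzymes in pathway order (vertical axis), with the standard error from limma as bars. HMGCS1, IDI1 and FDFT1 lie between -1.17 and -2.09 in all 4 groups, and PMVK lies between -0.50 and 0.16.

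Whether the effectors as labelled differed from each other was tested among the sgHS2 libraries alone, in 3 comparisons. The 4 libraries labelled LK or KL were set against the 4 labelled K or L, which are dual and single effectors by label only. Here 0 of 9 members passed an adjusted p of 0.05 in limma (0.0889% of all genes did), and 0 had an unadjusted p under 0.05 (7.45% of all genes). FDFT1 differed by -0.00 (95% interval -0.30 to 0.30, adjusted p = 0.998) and IDI1 by 0.10 (-0.26 to 0.47, adjusted p = 0.949). HMGCS1 differed by -0.36 (-0.80 to 0.09, adjusted p = 0.757). The intervals of MVD (-1.13 to 0.17) and MVK (-0.09 to 1.12) took in a 2-fold difference, and that of PMVK (-0.53 to 0.67) was about as wide. For comparison, HBE1 was lower in the libraries labelled LK or KL by -0.97 (standard error 0.0910, adjusted p = 0.000237 in limma). Its mean was between 24.9% (KL) and 66.9% (L) of that with sgGal4, and that of FDFT1 between 32.6% and 36.1%. Some other members spread more than FDFT1. MVK was between 29.0% (K) and 70.5% (KL), PMVK between 63.5% (K) and 119% (L) and GGPS1 between 48.6% (K) and 83.3% (KL).

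The libraries labelled LK were compared with those labelled KL. Again 0 of 9 members passed the threshold in limma (0.385% of all genes did), and 3 had an unadjusted p under 0.05 (9.84% of all genes). ACAT2 was 0.79 higher with LK (95% interval 0.15 to 1.42, adjusted p = 0.380 in limma, 0.285 to 0.788 over the alternatives) and IDI1 0.69 higher (0.17 to 1.21, adjusted p = 0.354 in limma, 0.181 to 0.782 over the alternatives). GGPS1 differed in the other direction, by -0.44 (-0.87 to -0.00, adjusted p = 0.501 in limma, 0.338 to 0.902 over the alternatives). In each of these genes the libraries of LK and KL did not overlap, as was also so for FDPS (higher with LK) and MVK (lower with LK), where 21.1% of all genes did not overlap and were higher and 21.7% were lower. The sign for MVD rested on LK replicate 2, with -0.68 for both libraries and 0.23 without it.

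Between the libraries labelled K and L, 0 of 9 members passed the threshold in limma (0.0395% of all genes did), and 1 had an unadjusted p under 0.05 (8.34% of all genes). This was GGPS1, which was lower with K by -0.53 (95% interval -0.96 to -0.09, adjusted p = 0.533 in limma, 0.366 to 0.899 over the alternatives). GGPS1, HMGCS1 and PMVK were lower in both K libraries than in both L libraries, as were 14.5% of all genes. FDFT1 differed by -0.04 (-0.47 to 0.38) and IDI1 by -0.06 (-0.58 to 0.46).

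**Figure D3:**
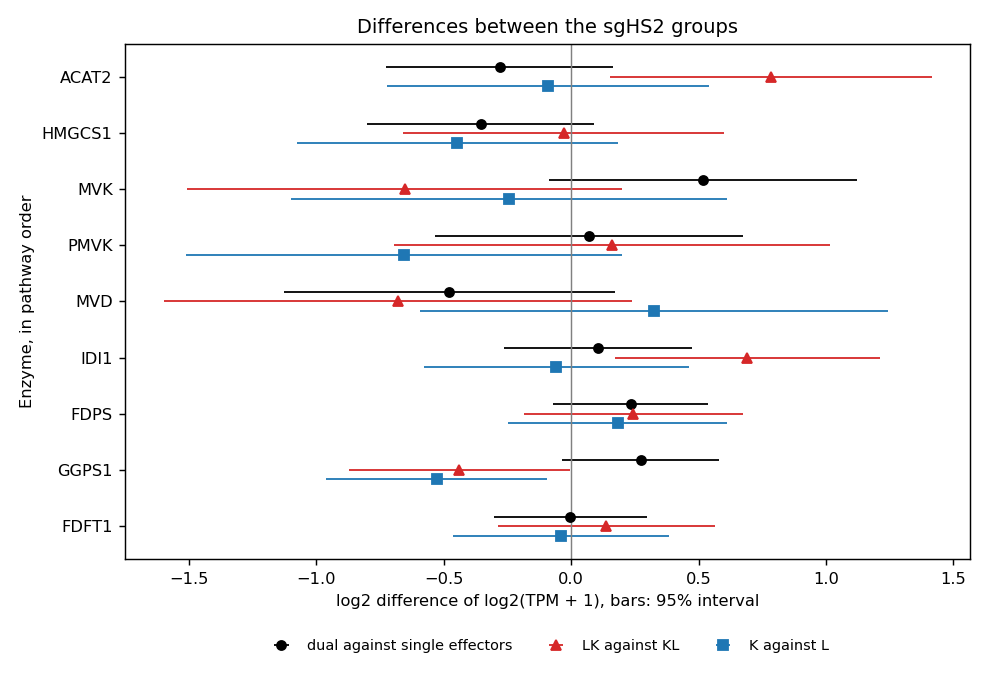
Difference of log2(TPM + 1) between sgHS2 groups (horizontal axis) for the 9 enzymes (vertical axis), with 95% intervals from limma as bars. The intervals of ACAT2 and IDI1 (LK against KL) and of GGPS1 (K against L, and narrowly LK against KL) leave out 0, and 0 of the 27 differences passed the adjusted threshold.

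The members were also compared with each other over the libraries, as a description. Over all 10 libraries the median Pearson correlation of log2(TPM + 1) was 0.52 for the 36 pairs of members, and 35 pairs were positive. The closest pairs were IDI1 with FDFT1 (0.953), HMGCS1 with FDFT1 (0.929) and MVK with GGPS1 (0.915). Over the 8 sgHS2 libraries alone the median was -0.04 and 15 pairs were positive, so the common pattern of the 10 libraries came from the distance between sgGal4 and sgHS2. The libraries share their scale and their groups, so the points are not independent.

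The other genes of the pathway were taken from fixed lists. Of 12 late sterol enzymes, which turn squalene into cholesterol, 10 were tested. NSDHL and EBP were listed at 0 in all libraries, which, as for GATA1, need not mean no expression. SQLE and MSMO1 were called lower in all 4 comparisons and CYP51A1 in those of K and KL, which made 3 (K), 2 (L), 2 (LK) and 3 (KL), and 0 were called higher. Over all genes 0.741% (K), 0.563% (L), 0.829% (LK) and 0.731% (KL) were called lower, and since this list and the next ones were chosen with these comparisons known, nothing was read from the counts. SQLE, squalene epoxidase and the next step after FDFT1, was at 73.2 and 75.1 TPM with sgGal4 and at 17.7 to 33.4 TPM with sgHS2, and MSMO1, a sterol demethylation enzyme, was at 36.0 and 30.1 TPM against 2.26 to 10.7 TPM. HSD17B7, a sterol ketoreductase, was at 4.02 and 6.76 TPM with sgGal4 and between 0 and 5.79 TPM with sgHS2, and of the 4 groups only L overlapped with sgGal4. Reads of HSD17B7 that also match pseudogene copies can be lost, and its level is uncertain. The median difference of this list was between -0.68 (L) and -1.05 (K).

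Of 11 genes of SREBP control and cholesterol uptake, all of which were tested, 1 was called lower in each comparison, beside 0.563% to 0.829% of all genes. This was INSIG1, which retains the SREBP escort SCAP in the endoplasmic reticulum and is itself an SREBP target, with 38.1 and 64.5 TPM with sgGal4 and 4.96 to 16.4 TPM with sgHS2. STARD4, a sterol transfer protein, was at 10.8 and 21.6 TPM against 3.21 to 7.81 TPM, and INSIG2 at 3.83 and 7.13 TPM against 0.48 to 3.66 TPM. Their differences ran from -1.08 to -1.64 and from -0.77 to -1.52 and were not called in any of the 4 comparisons. The median of the list was between -0.57 (LK) and -0.89 (K).

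The branches that use isoprenoids for other products lay near or above their sgGal4 level in the median. Of 16 tested genes of dolichol, ubiquinone and prenylation, 0 were called in any comparison with sgGal4 by limma, against 1 (K), 0 (L), 1 (LK) and 3 (KL) at an unadjusted p under 0.05, where all genes gave 15.6%, 12.8%, 14.2% and 14.7%, and the medians were between 0.14 (L) and 0.29 (K). PDSS1, which makes the ubiquinone side chain from farnesyl and geranylgeranyl diphosphate, was at 14.2 and 20.3 TPM with sgGal4 and 19.5 to 34.2 TPM with sgHS2. RABGGTA, a subunit of the transferase that prenylates Rab proteins, was at 7.04 and 5.32 TPM against 6.97 to 17.3 TPM, and DOLK, dolichol kinase, at 3.24 and 3.75 TPM against 3.85 to 8.04 TPM. A mitochondrial relative of the first enzyme gave a second reference. ACAT1, the mitochondrial thiolase, was at 116 and 118 TPM with sgGal4 and 97.1 to 133 TPM with sgHS2, with log2 differences from -0.14 to 0.03, while the cytosolic ACAT2 kept 29.0% to 52.0% of its level. IDI2, the second isomerase gene, was listed at 0 in 9 of the 10 libraries and did not pass the filter.

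**Figure D4:**
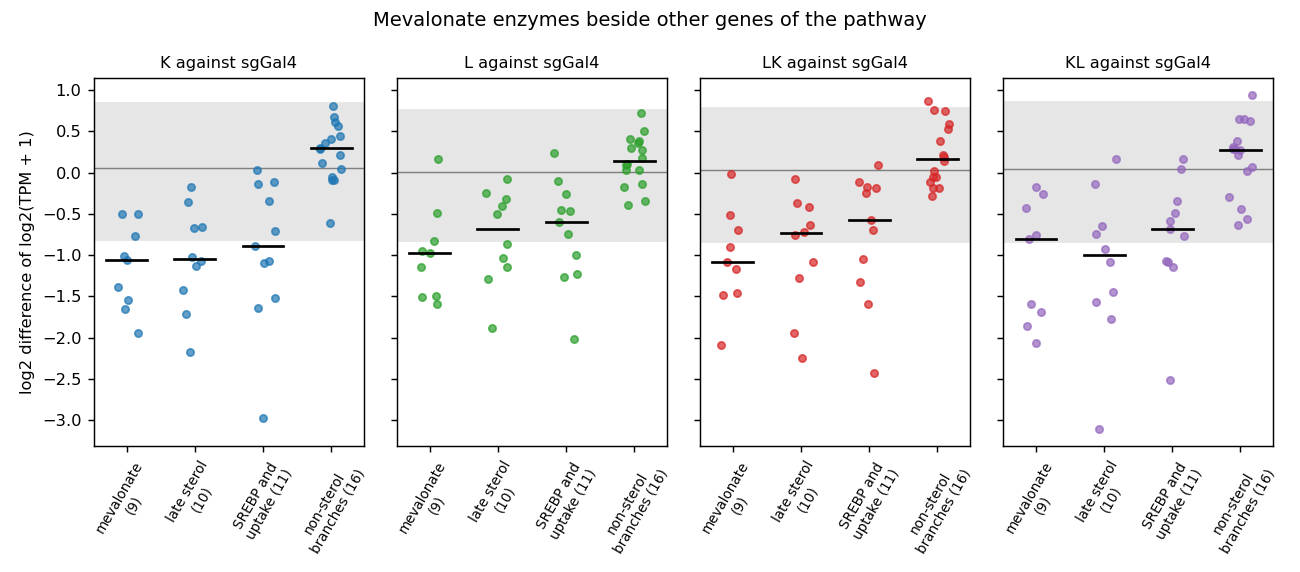
Difference of log2(TPM + 1) from sgGal4 (vertical axis) for the tested genes of each list (points, number in brackets), with list medians as black lines, one panel for each sgHS2 group. The grey band holds the middle 90% of all 10127 genes and the grey line is their median. The medians of the mevalonate list lie between -0.80 and -1.08 and those of the non-sterol branches between 0.14 and 0.29.

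Outside these lists, the genes whose pattern over the 10 libraries was most like that of the members were named by Pearson correlation with the mean standardised level of the 9 members. They were SCD (0.983), SERPINB9 (0.980), ARHGAP18 (0.969), AHCYL1 (0.959) and ATF3 (0.951). SCD, the desaturase that makes monounsaturated fatty acids, was at 194 and 229 TPM with sgGal4 and 84.2 to 105 TPM with sgHS2. SERPINB9, an inhibitor of granzyme B, was at 40.8 and 46.0 TPM against 9.28 to 14.9 TPM, and ATF3, a stress-induced transcription factor, at 14.7 and 25.7 TPM against 3.95 to 7.88 TPM. By the same measure, in which each member is part of the mean, FDFT1 reached 0.964, IDI1 0.921 and HMGCS1 0.917, and the lowest members were MVD (0.499) and PMVK (0.324). With 2 sgGal4 libraries standing far from 8 others, any gene with such a distance has a high value.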

How the data were processed

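K562 RNA-seq libraries, 10 in all, were put into 5 groups by their titles. Alignment by the authors was to hg19, in STAR (version 2.5.2b) with one alignment allowed per read, and they deposited TPM per gene symbol from RSEM, whose version and annotation are not given in the sources used here. Multi-copy genes can therefore lose reads. The study's comparisons used DESeq2, which needs counts and was not run on TPM here. For this report, log2(TPM + 1) was fitted in limma (version 3.58.1, R version 4.3.3) over all groups with 5 residual degrees of freedom, Benjamini-Hochberg adjustment and a mean-variance trend across the 10127 genes averaging 1 TPM or more. Calls were made at an adjusted p under 0.05. Depth is unknown, so no counting interval was given.

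The members and lists were chosen with earlier results of these data known. Named genes are the 9 members, up to 3 reported genes of each other list with the largest mean absolute difference from sgGal4, HBE1, KDM1A, ZNF10 and the 5 most alike genes. TCP1, CYP51A1, NSDHL, EBP, IDI2 and the cell markers were named after their values were seen. Gene coordinates are GENCODE release 44 on GRCh37, and promoter windows are RefSeq on GRCh38.p14.

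Alternatives were a pseudocount of 0.1, no filter, a 10 TPM filter, size factors, quantile normalization, removal of mitochondrial genes, no trend, a fit of the compared groups alone, a replicate block, and each library left out.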

Additional observations from a re-analysis of the deposited data

How the results depend on the processing

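All members but PMVK kept the direction of their difference from sgGal4 under every alternative tried. PMVK changed sign for L without L replicate 1 (-0.18), for LK without sgGal4 replicate 1 (0.04) or LK replicate 1 (0.03), and for KL without KL replicate 1 (0.09). The counts of members called were less stable. Without a mean-variance trend 0 members were called for K, L and LK, and without a filter on low values 2 for K and 2 for L. A fit of the compared groups alone called 2 for L. Leaving out 1 library gave 0 to 3 members for K, 1 to 3 for L and 1 to 2 for LK, where a lone library is assumed to vary like the other groups. With the 10 TPM filter, MVK and PMVK were not tested. The replicate block gave 4 members for K, 3 for L, 3 for LK and 4 for KL, and 0 in the comparisons between effectors. Same-numbered libraries did not deviate together (correlation -0.021 to 0.023 over 10 pairs of groups), so the numbers were not used as a pairing. This cannot show whether those libraries were prepared together. Between effectors 0 members were called under every alternative tried, but small differences changed sign. For dual against single effectors, leaving out 1 library gave -0.10 to 0.24 for PMVK (-0.10 without L replicate 2, -0.06 without KL replicate 2), -0.0555 (without K replicate 2) to 0.27 for IDI1, and -0.11 to 0.11 for FDFT1 (0.11 without K replicate 1, 0.06 without L replicate 2 or LK replicate 1, 0.03 without KL replicate 1). For LK against KL it gave -0.38 to 0.32 for HMGCS1 (0.32 without LK replicate 1, 0.15 without KL replicate 1, and 0.0195 under quantile normalization), -0.10 (without KL replicate 1) to 0.425 for PMVK, and -1.59 to 0.23 (without LK replicate 2) for MVD. For K against L it gave -0.49 to 0.31 for ACAT2, -0.38 to 0.26 for IDI1 and -0.26 to 0.18 for FDFT1, the upper values without K replicate 2, and -0.58 to 0.095 for MVK and -0.0638 to 0.43 for FDPS. Without L replicate 2 the values were 0.095 for MVK, -0.0638 for FDPS, 0.07 for IDI1 and 0.08 for FDFT1. Apart from the library left out, the cause was not tested.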
